A study of Mus musculus with 38 samples.

Results

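Meiotic arrest cAMP and Wee2-Cdc25 genes are the 10 genes described here: Gpr3, Gnas, Adcy3, Prkaca, Prkar1a and Pde3a, which make, sense or break down cyclic AMP, and Wee2, Cdc25a, Cdc25b and Cdc25c, which set the phosphorylation of the cell cycle kinase Cdk1. They were taken by gene symbol from a table of 23125 mouse genes, and all 10 were found. The table holds RNA sequencing of 36 libraries from Scarce Sample Polysome profiling, a sucrose gradient method for small samples. Of 10 gradient fractions, the upper 5 make the non-polysome pool and the 5 denser ones, which hold ribosome-loaded RNA, the polysome pool. Each of the 12 groups (6 stages, 2 fractions) had 3 libraries.

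The stages were germinal vesicle (GV) oocytes in prophase arrest, metaphase II (MII) oocytes, interphase zygotes, zygotes in M-phase (zygote M), and the two-cell stage, again in interphase and in M-phase (two-cell M). All came from ICR mice of at least 6 weeks whose females had received PMSG, and the labels tag the GV, zygote and two-cell samples as WT. GV oocytes were collected in IBMX, a phosphodiesterase inhibitor that holds the arrest, and MII oocytes had matured in culture for 12 h after its removal. The mothers of the embryos had also received hCG before mating. Interphase zygotes were collected at isolation, and embryos were cultured in KSOM medium until the two-cell stage. Embryo stage after the interphase zygote therefore cannot be told apart from time in culture. The zygote M and two-cell M embryos were held with the microtubule poison nocodazole, which MII oocytes were not given, so M-phase of the embryo cannot be told apart from nocodazole. The treatment tag of the M-phase embryos names meiosis, and the MII oocytes are tagged WT. The groups here follow the sample titles. All samples were lysed after cycloheximide. The labels name replicates by letter, and the number of oocytes or embryos per library is not given in the sources used here.

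In a fully grown mouse oocyte, the receptor Gpr3 keeps the stimulatory G protein (its alpha subunit is made from Gnas) active, adenylyl cyclase 3 (Adcy3) makes cyclic AMP, and protein kinase A (catalytic subunit Prkaca, regulatory subunit Prkar1a) is kept on. The phosphodiesterase Pde3a lowers cyclic AMP when meiosis resumes. Protein kinase A acts on the oocyte kinase Wee2, which phosphorylates and holds back Cdk1, and on the Cdc25 phosphatases, which remove that phosphate. Oocytes and zygotes are largely silent in transcription, and many of their stored mRNAs are translated or held back through elements near the 3′ end, among them the cytoplasmic polyadenylation element (CPE).

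The 3′ ends of Wee2, Gpr3, Gnas, Prkar1a and Cdc25b, the 5 genes with a stage effect in polysomes, are shown because such elements lie there. Each line holds the last 30 bases of the principal coding transcript in GENCODE M21 (build GRCm38), 5′ to 3′ on the transcript strand, except the second for Wee2, which holds the bases around a CPE match just upstream of them. Capitals mark the polyadenylation signal (AATAAA or ATTAAA) and the CPE letters TTTTAT or TTTTAAT, searched on the transcript strand only.
Wee2, chr6:40466784-40466813, plus strand: tgtaAATAAAgaTTTTATcttatccaaaga
Wee2, chr6:40466760-40466782, plus strand: ttaacataTTTTAATccagatca
Gpr3, chr4:133209340-133209369, minus strand: actcAATAAAaaaaaaatggtttttttgga
Gnas, chr2:174346715-174346744, plus strand: aaaatcAATAAAaATTAAAaatgagcaaaa
Prkar1a, chr11:109669627-109669656, plus strand: AATAAAaaagatgaaataatttaaattctt
Cdc25b, chr2:131198466-131198495, plus strand: ccttggttcAATAAAgcactgagcaagttg
Wee2 held 2 CPE matches in its last 100 bases, 1 on each side of the polyadenylation signal. Of the other genes of the set, Adcy3 held 1 match, which overlaps its polyadenylation signal ATTAAA, and the remaining 8 held none in that window. Among 21877 coding genes, 16.4% held such letters in the last 100 bases, and 71.2% held a polyadenylation signal in the last 50. A match is a description of the letters and not a measured site.

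The level of each gene is given in FPKM, fragments per kilobase of exon scaled to the mapped fragments, which is a share of each library. A ratio of polysome to non-polysome FPKM is therefore relative to the other RNA of each pool, and fewer molecules of one RNA cannot be told apart from more of the rest. The table carries an offset of 0.01 FPKM in every library. Regular steps in the low values put the depth at about 8430000 to 26400000 fragments per library. Pairs of libraries of one group correlated at 0.584 (two-cell, non-polysome) to 0.961 (zygote, polysome) over the 7967 genes tested, and the two-cell and two-cell M groups of both fractions and non-polysome zygote M stayed at or below 0.751. The non-polysome two-cell M libraries stood apart, with the 3 highest FPKM sums (207400 to 247400, against 88980 to 162300 in the other 33) and the fewest genes above 0.1 FPKM (5140 to 5889). At least 11 of 12 oocyte markers had a mean of 1 FPKM or more in each GV and MII group. Their sum went from 6100 to 7920 FPKM in GV polysomes to 126 to 349 in two-cell M polysomes. Of the granulosa and cumulus markers 12 of 14 were in the table, and only Inha reached a mean of 1 FPKM, in both MII groups and in non-polysome two-cell. Of the defining markers, Fshr had group means of at most 0.0196 FPKM. Amh had a mean of 0.943 FPKM in two-cell M polysomes and of at most 0.0154 in the other groups. In two-cell M polysomes the sum of the list was 0.133 to 3.23 FPKM per library, with a median of 0.321. Among 6 blood cell markers in the table, Hba-a1 had a mean of 53.4 FPKM in two-cell polysomes and 129 in the non-polysome fraction, and of 31.3 and 33.9 in those of two-cell M. Lyz2 had 4.80 FPKM in non-polysome zygote M and 2.63 in non-polysome two-cell, while Hbb-bs and Hbb-bt had group means of at most 0.149 FPKM. The part of these markers in the results was not tested.

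**Figure D1:**
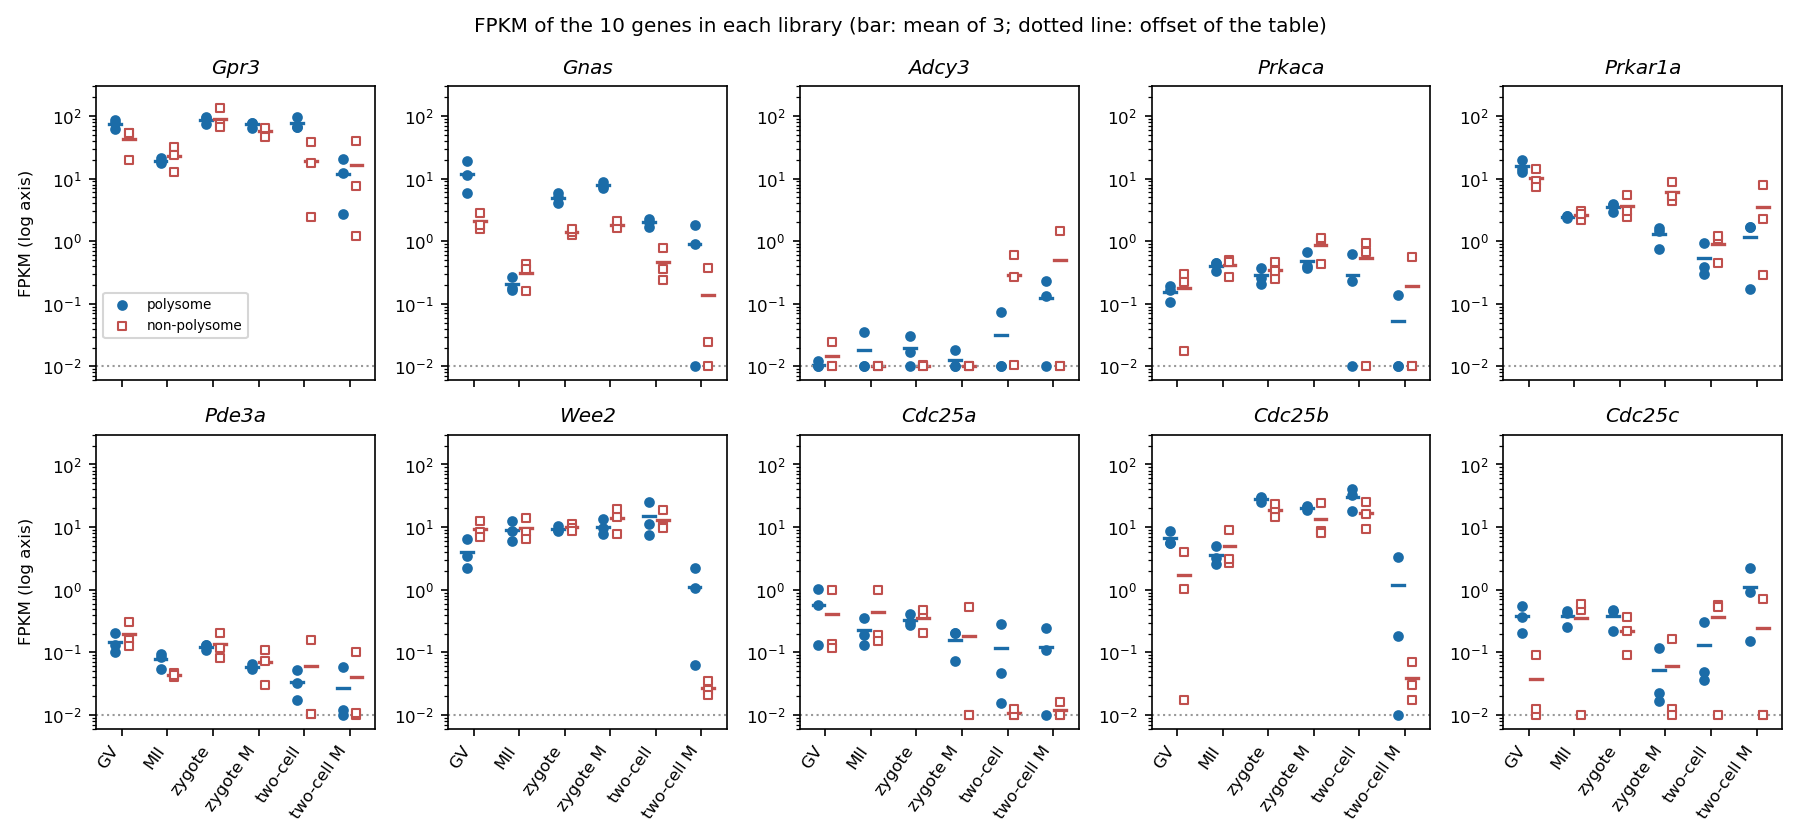
FPKM of each gene (log axis) in each of 36 libraries by stage, with polysome libraries as filled circles, non-polysome libraries as open squares, the mean of 3 as a bar and the offset of 0.01 FPKM as a dotted line. Gpr3 was the most abundant, Gnas was lowest in MII among the stages before the two-cell M-phase, and Wee2 and Cdc25b were near the offset in two-cell M non-polysome libraries.

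Of the 10 genes, 8 passed the minimum of a geometric mean of 0.1 FPKM over all libraries and were tested. Adcy3 and Pde3a did not pass. Across the 6 stages, 5 of the 8 differed in polysomes (limma moderated F-test, adjusted p under 0.05), against 62.9% of all genes tested, and 6 of 8 in the non-polysome fraction, against 78.3%. In polysomes these were Gpr3 (adjusted p = 0.00497), Gnas (0.000203), Prkar1a (0.000200), Wee2 (0.000117) and Cdc25b (0.000335). Cdc25a was added in the non-polysome fraction (adjusted p = 0.000736). Prkaca and Cdc25c did not pass in either fraction. Both shares lie near those of all genes, so the count says nothing particular about these 8. In the pairwise comparisons that follow, a gene was called at a limma adjusted p under 0.05 and a fold change over 2.

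Gpr3, the orphan receptor that keeps oocyte cyclic AMP high, had the highest level of the set per length in every polysome group. Its polysome level was 61.8, 77.4 and 87.3 FPKM in GV, 18.0, 18.7 and 21.1 in MII and 74.1, 91.5 and 94.7 in zygotes. It was 63.7, 77.2 and 77.8 FPKM in zygote M, 66.3, 66.9 and 95.7 in two-cell, and 2.75, 12.3 and 20.1 in two-cell M. The MII libraries lay below every GV, zygote and zygote M library, and the GV, zygote, zygote M and two-cell libraries overlapped in part. Groups that do not overlap are common here: of all genes tested, 47.5% did not overlap between GV and MII polysomes, 54.4% between GV and zygote, 56.2% between MII and zygote, 57.2% between MII and zygote M and 43.4% between two-cell and two-cell M. The difference of MII from GV was -1.96 on the log2 scale (SE 0.87) and missed the threshold (limma adjusted p = 0.217). With only the GV and MII polysome libraries in the fit the adjusted p was 0.00305, and without the two-cell M libraries it was 0.0313, so this call depends on which libraries set the spread. The fall from two-cell to two-cell M was called, at -3.09 (SE 0.87, adjusted p = 0.00656), beside a median of -1.17 over all genes. It was lost (adjusted p = 0.0646) without two-cell M polysome library B, the lowest one, and with library medians made equal (-1.68, adjusted p = 0.159).

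Non-polysome Gpr3 was at 12.5 to 32.3 FPKM in MII and 65.4 to 132 FPKM in zygotes. In two-cell it was 2.44, 17.7 and 38.1 FPKM, all below the 3 two-cell polysome libraries (29.7% of all genes did not overlap between these fractions). Gpr3 was accordingly called higher in two-cell polysomes than in the non-polysome fraction (2.67 on the log2 scale, SE 0.87, limma adjusted p = 0.0348). That call held in 2 of the 6 fits that each left out a library. It was lost without non-polysome library B or any 1 of the 3 polysome libraries, with adjusted p up to 0.254. It was also lost with equal medians, with library weights, with no minimum and with only the 2 groups in the fit (adjusted p of 0.0709, 0.154, 0.0698 and 0.190). The gene Cd164l2 overlaps Gpr3 on the opposite strand, and the library kit does not mark strand.

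Gnas, which encodes the alpha subunit of the stimulatory G protein, was lower in MII polysomes than in GV, zygote and zygote M polysomes. In polysomes it was at 5.86, 11.3 and 18.8 FPKM in GV and at 0.166, 0.179 and 0.271 in MII. It stood at 4.14, 4.99 and 5.79 FPKM in zygotes and at 6.96, 7.65 and 8.94 in zygote M. The GV and MII libraries did not overlap (as for 47.5% of all genes), and neither did those of MII and zygote (56.2%). At two-cell the level was 1.69, 2.04 and 2.25 FPKM, and at two-cell M it was spread over 0.01, 0.892 and 1.78 FPKM. The MII values rest on about 12.6 to 19.4 fragments per library for a transcript of 3903 bases, against 461 to 1800 in GV.

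The fall of Gnas from GV to MII in polysomes was -5.74 on the log2 scale (SE 1.21, limma adjusted p = 0.00244). MII was also below zygote M (-5.28, adjusted p = 0.00323) and below zygote (-4.62, adjusted p = 0.0192). The first of these held in all fits that left out 1 library, while the contrast with zygote held in 1 of 6, that without MII library A, with adjusted p up to 0.0810, and was lost with the replicate letter as a block (adjusted p = 0.0764). Non-polysome Gnas was 1.57 to 2.83 FPKM in GV and 0.159 to 0.428 in MII, again with no overlap (as for 47.6% of all genes), and the difference of -2.79 missed the threshold (adjusted p = 0.118). It was called with 0.1 FPKM added (-2.41, adjusted p = 0.0119) and with 1 FPKM added (-1.21, 0.00473). From two-cell to two-cell M the non-polysome level went from 0.238, 0.356 and 0.779 to 0.0101, 0.0248 and 0.375 FPKM, which was called at -3.15 (adjusted p = 0.0412) though the groups overlap. It was lost without library A or C of either group (adjusted p up to 0.229). With library medians made equal that difference was 0.50, and with quantile normalization it was 0.10, so its direction depends on the scaling. With 0.1 FPKM added it was -1.46 (adjusted p = 0.106). Gnas has 24 annotated transcripts, among them forms from other promoters, and is overlapped by Nespas and Gm20721 on the opposite strand, so its value is a sum over the locus and is uncertain.

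Adcy3, the adenylyl cyclase of the oocyte, was at the offset in 22 of 36 libraries. From GV to zygote M its highest value was 0.0348 FPKM, about 2.43 fragments in the 3 MII polysome libraries together. It was above 0.2 FPKM in 4 libraries, all two-cell or two-cell M, and reached 1.48 FPKM in 1 non-polysome two-cell M library. The other 2 libraries of that group were at the offset. Cenpo overlaps the end of Adcy3 on the opposite strand, and the 2 genes' reads cannot be told apart without strand. Adcy3 lay under the minimum level, and in a fit with no minimum its stage effect had a limma adjusted p of 0.607 in polysomes and of 0.128 in the other fraction.

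Prkaca, the catalytic subunit of protein kinase A, was low throughout, from 0.01 to 1.10 FPKM. Its polysome level was 0.106, 0.164 and 0.193 FPKM in GV and 0.332, 0.444 and 0.447 in MII, which do not overlap (as for 47.5% of all genes). The difference of 1.43 on the log2 scale had an SE of 1.55 (limma adjusted p = 0.716). In two-cell M polysomes it was at the offset in 2 libraries and at 0.140 FPKM in the third. The contrast of MII with two-cell M was called (4.07, SE 1.55, adjusted p = 0.0292) beside a median of 2.64 over all genes, and it held only in the fit without two-cell M library B among 6 that left out a library (adjusted p up to 0.110). With equal medians it was 1.87 (adjusted p = 0.375), and with quantile normalization 0.27 (0.877). The size of the contrast depends on the offset: it was 1.82 (adjusted p = 0.0332) with 0.1 FPKM added and 0.42 (0.0799) with 1 added. With no minimum the call was lost as well (0.0507).

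Prkar1a, the regulatory subunit that holds the kinase inactive until cyclic AMP binds, was highest in GV. In polysomes it stood at 12.6, 14.4 and 19.7 FPKM in GV, 2.36, 2.48 and 2.55 in MII and 2.88, 3.81 and 3.96 in zygotes. It was 0.761, 1.43 and 1.65 FPKM in zygote M, 0.302, 0.381 and 0.924 in two-cell, and 0.174, 1.67 and 1.70 in two-cell M. GV, zygote, MII and zygote M followed each other in this order without overlap, and the 3 lowest groups (zygote M and both of the two-cell stage) overlapped. Of all genes tested, 54.4% did not overlap between GV and zygote polysomes, 56.2% between MII and zygote and 57.2% between MII and zygote M. GV was above two-cell by 5.01 on the log2 scale in polysomes (SE 0.86, limma adjusted p = 0.000148) and by 3.56 in the non-polysome fraction (adjusted p = 0.00247). Both calls held in every fit that left out a library and in all 12 other settings. The fall from GV to MII in polysomes was -2.63 (adjusted p = 0.0686) and was called with only those groups in the fit (adjusted p = 0.00216) and without the two-cell M libraries (0.000578). In zygote M the non-polysome level was 4.45, 5.25 and 8.74 FPKM, above all 3 polysome libraries. Of all genes, 23.9% did not overlap between fractions in zygote M. The polysome to non-polysome difference of -2.28 had a limma adjusted p of 0.205.

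Pde3a, the phosphodiesterase that breaks down cyclic AMP at the resumption of meiosis, lay under the minimum level. Its polysome level was 0.102, 0.130 and 0.207 FPKM in GV and 0.0537, 0.0860 and 0.0941 in MII. Non-polysome levels were 0.126 to 0.302 FPKM in GV and 0.0411 to 0.0464 in MII. The MII libraries were below the GV libraries in each fraction. Such separation was common: 47.5% of all genes tested did not overlap between GV and MII polysomes. For the non-polysome libraries of these stages the share was 47.6%, so this says nothing particular about Pde3a. On a transcript of 12302 bases, the MII polysome values rest on about 11.3 to 19.7 fragments per library. In two-cell M it was at or under 0.101 FPKM in all 6 libraries. In non-polysome two-cell it was at 0.0103, 0.0104 and 0.159 FPKM. The lower values were near the offset of 0.01 FPKM, and the highest lay within the GV range, so the groups overlap. In a fit with no minimum, GV was above two-cell by 2.83 in the non-polysome fraction (limma adjusted p = 0.0409, with 13.6% of all genes called). That size depends on the offset. The stage effect of Pde3a in that fit had a limma adjusted p of 0.0406 in the non-polysome fraction and 0.0753 in polysomes. The share of all genes with a stage effect in that fit is not given here. With the minimum it was 78.3% in the non-polysome fraction.

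Wee2, the oocyte kinase that holds Cdk1 back, was within 2.19 to 25.5 FPKM in every polysome library up to the two-cell M-phase. By stage it was 2.19, 3.46 and 6.37 FPKM in GV polysomes, 6.01, 8.73 and 12.5 in MII and 8.56, 9.09 and 10.5 in zygotes. It was 7.63, 9.69 and 13.3 FPKM in zygote M, 7.56, 11.4 and 25.5 in two-cell, and 0.0626, 1.05 and 2.24 in two-cell M. Neighbouring groups from MII to two-cell overlapped, and the two-cell M libraries lay below all two-cell libraries. GV polysomes were below zygote and two-cell polysomes in all libraries, with differences of -1.36 (limma adjusted p = 0.429) and -1.83 (0.118). The second was called with 0.1 FPKM added (-1.80, adjusted p = 0.0421) and with 1 added (-1.58, 0.00642). The first was called with neither (adjusted p = 0.201 and 0.0612). Of all genes, 54.4% did not overlap between GV and zygote polysomes, 44.6% between GV and two-cell and 43.4% between two-cell and two-cell M. MII against GV gave 1.25 (SE 0.80, adjusted p = 0.447), and the 2 groups overlapped.

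From two-cell to two-cell M, Wee2 fell by 4.62 on the log2 scale in polysomes (SE 0.80, limma adjusted p = 6.28e-05). Without two-cell M polysome library B, the lowest, it was -3.08, and over all libraries left out in turn it was -5.66 to -3.08. The ratio of estimated fragments was 14.6 (95% counting interval 12.3 to 17.4). The adjusted p was 0.0681 with only these 2 groups in the fit. The non-polysome level went from 9.69, 10.3 and 19.0 FPKM to 0.0205, 0.0248 and 0.0355. These last values amount to about 2 fragments over the 3 libraries, so the fitted -8.88 (adjusted p = 8.83e-10) depends on the offset. From estimated fragments the ratio was 659, with a 95% counting interval of 182 to 5440, which covers counting error only. MII oocytes, at 6.01 to 12.5 FPKM, were above two-cell M polysomes by 4.04 (adjusted p = 0.000151), and the median of all genes in that comparison was 2.64. With equal medians the difference was 1.84 (adjusted p = 0.0760). The non-polysome contrast was 8.44 (adjusted p = 1.31e-09). Two-cell M was also the 1 stage with a called fraction difference for Wee2, 4.33 higher in polysomes (adjusted p = 0.000365), beside a median of 0.37. The non-polysome side of this is the same 2 fragments, and the call was lost in 5 of 10 alternatives, among them 1 FPKM added (0.90, adjusted p = 0.177), quantile normalization (1.19, 0.313) and only the 2 groups in the fit (0.392).

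Cdc25a, a phosphatase of Cdk1 and Cdk2, was between 0.01 and 1.02 FPKM. Its non-polysome level was 0.117, 0.136 and 0.988 FPKM in GV and 0.153, 0.191 and 0.983 in MII. In two-cell it was at the offset in 2 libraries and at 0.0126 FPKM in the third, and in two-cell M at the offset in 2 and at 0.0164 in the third. The GV to two-cell difference was 4.53 (limma adjusted p = 0.00886) and the MII to two-cell M difference 4.70 (adjusted p = 0.00269), both against groups with under 1 estimated fragment in all, so these folds depend on the offset. The first was lost without GV non-polysome library C (adjusted p = 0.0661). It was also lost in 4 of 11 alternatives, among them quantile normalization (0.107) and 1 FPKM added (0.43, 0.117). The second was lost in 3 of 10 alternatives, among them 1 FPKM added (0.46, adjusted p = 0.0588). With library medians made equal it was -0.11. Its polysome levels overlapped between GV, MII and zygote.

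Cdc25b, the phosphatase required in mouse oocytes for the resumption of meiosis, had polysome levels of 2.60 to 8.80 FPKM in oocytes and 18.3 to 40.9 FPKM in embryos before the two-cell M-phase. None of the pairs tested between them in limma was called (GV with zygote and two-cell, MII with zygote and zygote M). By stage its level was 5.51, 5.66 and 8.80 FPKM in GV polysomes, 2.60, 3.25 and 5.06 in MII and 25.1, 29.0 and 30.8 in zygotes. It was 18.7, 21.1 and 21.5 FPKM in zygote M, 18.3, 32.9 and 40.9 in two-cell, and 0.01, 0.182 and 3.33 in two-cell M. No oocyte library reached any of these embryo libraries before the two-cell M-phase. Of all genes tested, 54.4% did not overlap between GV and zygote polysomes and 44.6% between GV and two-cell. The share was 56.2% between MII and zygote and 57.2% between MII and zygote M. Shares for GV with zygote M and for MII with two-cell are not given here. The difference of MII from zygote was -3.01 (SE 1.40, limma adjusted p = 0.356), and with only those 2 groups in the fit its adjusted p was 0.000229. GV against zygote gave -2.12 (adjusted p = 0.502), and 0.00318 with only those groups. Without the two-cell M libraries these stood at 0.0975 and 0.245. With 1 FPKM added both differences were called, at -2.69 (adjusted p = 0.000534) and -1.96 (0.00842), and so was MII against zygote M (-2.24, 0.00172).

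In the non-polysome fraction the rise of Cdc25b from GV was called. GV was at 0.0175, 1.02 and 4.03 FPKM, zygotes at 14.5, 19.1 and 23.6 and two-cell embryos at 9.42, 16.4 and 25.2, with no overlap. Of all genes tested, 49.4% did not overlap between GV and zygote in this fraction and 35.8% between GV and two-cell. GV minus zygote was -5.49 (limma adjusted p = 0.00863) and GV minus two-cell was -5.24 (0.00551). Both were lost without GV non-polysome library B, the lowest, at -3.21 (adjusted p = 0.134) and -2.95 (0.0827), and with only the 2 groups in the fit (0.0867 and 0.154). From two-cell to two-cell M Cdc25b fell by 7.32 in polysomes (SE 1.40, adjusted p = 0.000195). That value depends on single libraries. Without two-cell M library A, at the offset, it was -5.23, and without library B, at 3.33 FPKM, it was -9.42. The ratio of estimated fragments was 28.0 (95% counting interval 23.9 to 33.1). With only these 2 groups in the fit the fall had an adjusted p of 0.0529. The non-polysome level fell by 8.89 (adjusted p = 1.11e-05), where 0.0171, 0.0304 and 0.0706 FPKM were left. That is about 4 fragments, and the ratio of estimated fragments was 465 with a 95% counting interval of 182 to 1710. MII was above two-cell M by 4.26 in polysomes (adjusted p = 0.0124) and by 6.98 in the non-polysome fraction (0.000120). The polysome contrast was lost without two-cell M polysome library A, at 2.17 (adjusted p = 0.181), and with equal medians the 2 contrasts were 2.07 (0.237) and 2.18 (0.202). Spef1 overlaps the start of Cdc25b on the opposite strand.

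Cdc25c, the third family member, was low and scattered. Its polysome level was 0.204, 0.373 and 0.546 FPKM in GV, 0.252, 0.422 and 0.460 in MII and 0.217, 0.450 and 0.478 in zygotes. It was 0.0166, 0.0228 and 0.117 FPKM in zygote M, 0.0364, 0.0495 and 0.305 in two-cell, and 0.154, 0.931 and 2.20 in two-cell M. Zygote M lay below every MII and zygote library. Of all genes, 57.2% did not overlap between MII and zygote M polysomes and 56.5% between zygote and zygote M. None of the pairwise comparisons of Cdc25c was called, with -3.35 (limma adjusted p = 0.325) from zygote to zygote M and 3.05 (0.157) from two-cell to two-cell M. With 0.1 FPKM added the second was called (2.06, adjusted p = 0.0441) and the first was not (-1.67, 0.219).

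The study set M-phase against interphase at each division. In polysomes, 1 of 8 genes was called between GV and MII, against 6.11% of all genes, and it was Gnas. None was called between zygote and zygote M in limma, where 5.75% of all genes were. An unadjusted p under 0.05 was found for 0 of 8, against 1291 of 7967 genes. Gpr3, Wee2 and Cdc25b fell between two-cell and two-cell M, against 36.3% of all genes called there. No gene of the set was called in the non-polysome fraction between GV and MII (background 16.6%) or between zygote and zygote M (background 10.4%). An unadjusted limma p under 0.05 was found there for 3 and 1 of the 8, against 2275 and 1817 of 7967 genes. At the two-cell division Gnas, Wee2 and Cdc25b were called as falling there, against 36.1% of all genes. The counts at the two-cell division are close to the background.

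**Figure D2:**
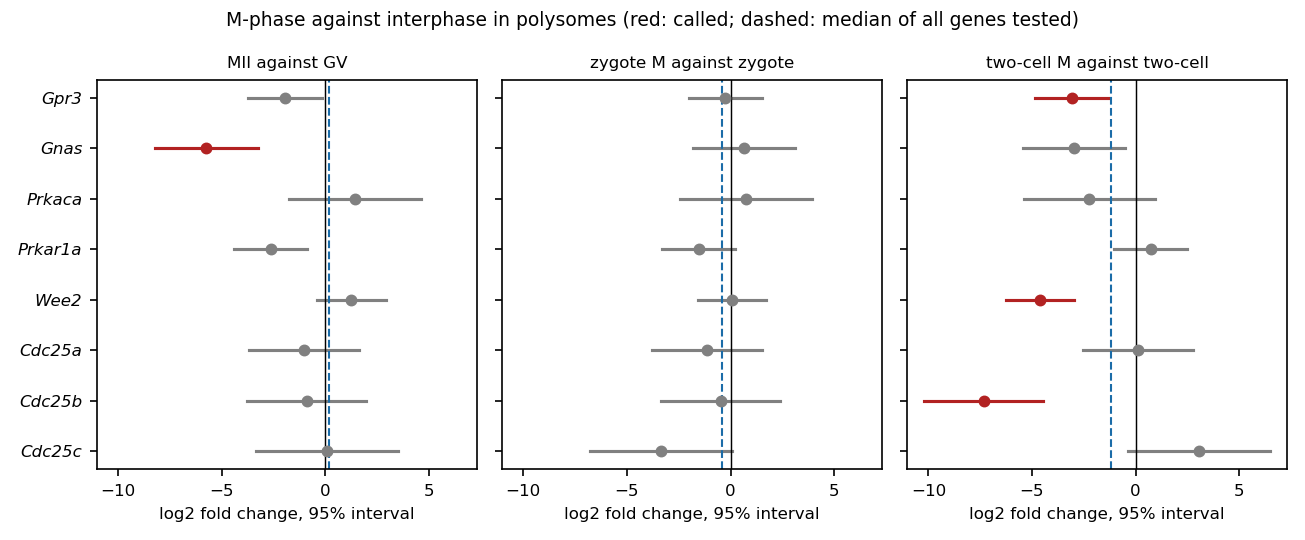
Log2 fold change in polysomes with its 95% interval (limma) for the 8 genes tested, M-phase against interphase at 3 divisions, with called genes in red and the median of all genes as a dashed line. Gnas was called at meiosis (-5.74), no gene at the zygote, and Gpr3, Wee2 and Cdc25b at the two-cell stage, where the median of all genes was itself -1.17.

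Whether a gene's M-phase change differed between divisions was tested directly in polysomes. The change of Gnas at meiosis was lower than at the zygote by -6.41 on the log2 scale (SE 1.71, limma adjusted p = 0.0139). It was the 1 gene of 8 called, against 9.51% of all genes. Between meiosis and the two-cell division, Prkar1a (-3.38), Wee2 (5.87) and Cdc25b (6.43) were called, against 23.5% of all genes. Between the zygote and two-cell divisions, Wee2 (4.71), Cdc25b (6.85) and Cdc25c (-6.40) were called, against 23.7%. The contrast for Prkar1a held in 2 of the 12 fits that left out a library, those without library B of two-cell or of two-cell M (adjusted p up to 0.114). That for Cdc25c held in 3 of 12, those without two-cell library B, two-cell M library A or zygote M library A (adjusted p up to 0.104), and was lost with the replicate letter as a block (0.0903). Without two-cell M library A the contrasts of Cdc25b had adjusted p of 0.0809 and 0.0532. Over all libraries left out in turn they ranged over 4.33 to 8.52 and 4.76 to 8.95, and those of Wee2 over 4.33 to 6.92 and 3.17 to 5.75.

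Oocytes were also compared with embryos in the like phase, and MII with the interphase zygote. In polysomes, none of the 8 was called between GV and zygote in limma (background 5.61%). There 1 of the 8 had an unadjusted p under 0.05, against 1344 of 7967 genes. Prkar1a alone was called between GV and two-cell (background 16.7%). Gnas alone was called between MII and zygote M (12.4%) and between MII and zygote (4.57%). Prkaca, Wee2 and Cdc25b were called higher in MII than in two-cell M, where 53.0% of all genes were called. Non-polysome Cdc25b was called between GV and zygote (13.9%), and Prkar1a, Cdc25a and Cdc25b between GV and two-cell (29.7%). None was called between MII and zygote M (19.8%) or between MII and zygote (3.28%). An unadjusted limma p under 0.05 was found for 2 and 1 of the 8, against 2429 and 921 of 7967 genes. Wee2, Cdc25a and Cdc25b were called between MII and two-cell M, against 61.3% of all genes. These comparisons share groups and are not independent of each other.

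Within a stage, polysome and non-polysome levels seldom differed enough to be called. None of the 8 was called by limma in GV (background 4.96%), MII (0.753%), zygote (1.38%) or zygote M (1.92%). An unadjusted p under 0.05 was found for 2, 0, 0 and 1 of them, against 1570, 489, 588 and 983 of 7967 genes. Gpr3 was called in two-cell (16.1%) and Wee2 in two-cell M (14.8%), both higher in polysomes. Every Gnas polysome library was above every non-polysome library in GV, zygote, zygote M and two-cell, by 2.42, 1.82, 2.10 and 2.29 on the log2 scale, with adjusted p of 0.265, 1, 0.529 and 0.199. Of all genes tested, 33.8%, 47.1%, 23.9% and 29.7% did not overlap between fractions in these stages. In GV, Gpr3, Cdc25b and Cdc25c likewise lay higher in polysomes without overlap and Wee2 lower, in zygotes Cdc25b lay higher, in zygote M Prkar1a lay lower, and in two-cell Gpr3 and Cdc25a lay higher. Without the two-cell M libraries the adjusted p for Gnas were 0.00244, 0.0427, 0.0197 and 0.00218. In MII the Gnas groups overlapped (-0.53).

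**Figure D3:**
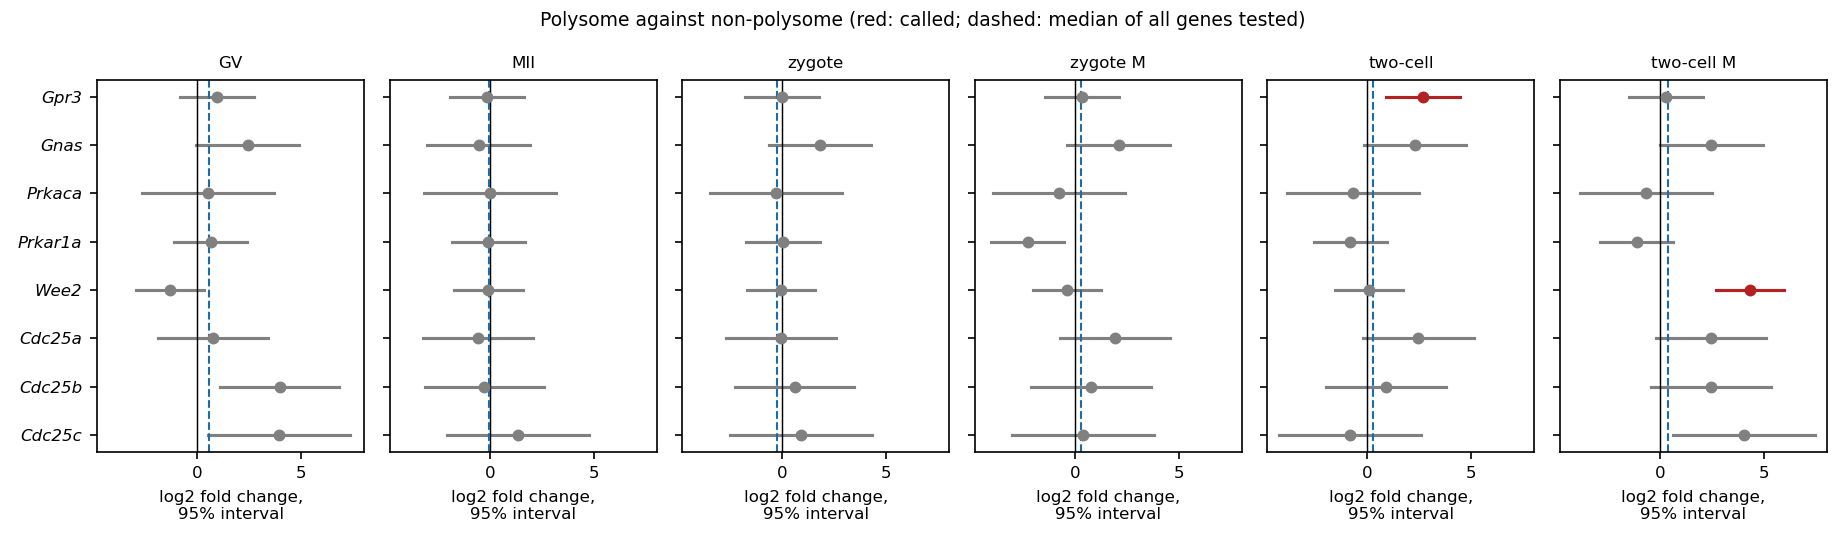
Log2 difference of polysome from non-polysome level with its 95% interval (limma) for the 8 genes tested in each of 6 stages, with called genes in red and the median of all genes as a dashed line. Gpr3 in two-cell (2.67) and Wee2 in two-cell M (4.33) were the called differences.

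A change in polysomes that differs from the change in the non-polysome fraction was tested as an interaction. No gene of the set was called in limma for GV to MII (background 0.163%) or for zygote to zygote M (0.289%). An unadjusted p under 0.05 was found for 1 of 8 (Cdc25b) and 0 of 8, against 587 and 599 of 7967 genes. For two-cell to two-cell M, Wee2 was called (4.26, SE 1.14, adjusted p = 0.0219), against 5.75% of all genes, and its non-polysome level fell further than its polysome level. The call was lost without two-cell polysome library B or two-cell M polysome library A or C (adjusted p up to 0.0702). It was also lost in 6 of 10 alternatives, with 2.51 (adjusted p = 0.115) at 0.1 FPKM added and 0.83 (0.508) at 1 FPKM added, and the non-polysome two-cell M side is about 2 fragments.

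Of the other genes of the cyclic AMP and protein kinase A pathway, 45 of a list of 47 were in the table and 12 were tested. Between GV and MII in polysomes 1 rose and 1 fell, with a median change of -0.27 against 0.18 over all genes, of which 6.11% were called. The one that fell was Gnai2, an inhibitory G protein subunit, at -4.70 (limma adjusted p = 0.000276). Its polysome level was 43.7 ± 25.6 FPKM in GV (SD, n = 3) and 1.46 ± 0.0970 in MII. The one that rose was Rapgef3, a cyclic AMP-regulated exchange factor, at 4.67 (adjusted p = 0.00988), from 0.145 to 3.69 FPKM. At two-cell M against two-cell 4 fell and none rose in polysomes, with a median of -1.15 beside -1.17 over all genes and against 36.3% called, and in the non-polysome fraction 5 fell (median -1.55 beside -1.14, and 36.1% called over all genes). Gnb2, a G protein beta subunit, fell by 3.01 in polysomes (adjusted p = 0.0277) and by 7.13 in the non-polysome fraction (4.92e-06), where Rgs2 (-2.91, 0.0157) and Gnai2 (-2.24, 0.0308) fell as well. Between GV and two-cell in polysomes, Rgs2, a regulator of G protein signalling, was higher in GV (5.03, adjusted p = 0.000357) and Gnai2 likewise (3.22, adjusted p = 0.00626), with 12 genes tested and 16.7% of all genes called. The receptor Gpr12, a relative of Gpr3, was not tested and was at the offset in all non-polysome libraries.

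Of the other Cdk1 regulators, all 36 on the list were in the table and 30 were tested. Between GV and MII in polysomes 2 rose and 2 fell (median -0.04), against 6.11% called over all genes. Btrc, a subunit of a ubiquitin ligase, rose by 4.18 (limma adjusted p = 0.0220) and Ccnb1, the cyclin partner of Cdk1, by 1.71 (0.0115). Ywhab, a 14-3-3 protein, changed by -2.31 (adjusted p = 0.0168) and Cdk1 by -3.03 (0.00162), the latter from 18.9 ± 1.88 to 2.37 ± 0.692 FPKM (SD, n = 3). At the zygote 3 rose and 1 fell, against 5.75% called over all genes. Cks2 (4.58, adjusted p = 3.08e-08) and Cks1b (3.91), small subunits that bind Cdk1, and the cyclin Ccna2 (1.52, 0.0413) rose, and the one that fell was Cdk1 itself (-2.30, adjusted p = 0.0200). At the two-cell division 3 rose and 6 fell (median -0.47 beside -1.17 over all genes), which is near the 36.3% called over all genes, and the genes that rose were Ppp1cc, a phosphatase catalytic subunit (2.52, adjusted p = 0.0296), Cdk1 (2.17, 0.00668) and Ccna2 (1.31, 0.0242). Those that fell included Ensa, an inhibitor of the phosphatase that opposes Cdk1 (-5.38, adjusted p = 0.00103), Fzr1, an activator of the anaphase-promoting complex (-4.75, 0.00580), and Chek1, a checkpoint kinase (-4.09, 0.0193). Non-polysome levels rose for 1 and fell for 12 there, against 36.1% called over all genes, among them Fzr1 (-7.08, adjusted p = 9.65e-05), Plk1, a mitotic kinase (-6.83, 4.15e-08), and Chek1 (-4.97, 0.00480), while Ppp1cc rose (2.57, 0.0266). The other Cdk1 inhibitory kinases differed in level. Wee1 was not tested and had group means of at most 0.0979 FPKM in polysomes, while Pkmyt1 had 27.3 ± 6.54 FPKM in GV polysomes and 15.2 ± 2.58 in MII (SD, n = 3).

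Among tested protein-coding genes averaging at least 1 FPKM over all libraries, those whose 12 group means followed each member most closely were found. The measure was the Pearson correlation of log2 means, as a description over 12 groups that share libraries and scaling. Gpr3 was closest to Alkbh5 (0.96) and Camta2 (0.95), Gnas to Haus5 and Mtmr14 (both 0.94), and Prkar1a to Cers5 (0.926) and Yipf5 (0.925). Wee2 was closest to Rtl8a and Rtl8b (both 0.98) and Cdc25b to Mavs and Oas1f (both 0.98). Prkaca followed Eef2k and Golga5 (both 0.93), Cdc25a followed Gdpgp1 and Ap3m2 (both 0.97), and Cdc25c followed Prr19 (0.87) and Tubb5 (0.86). Within the set the closest pairs were Gpr3 with Gnas (0.89) and Wee2 with Cdc25b (0.85).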

How the data were processed

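Per the labels and the study's methods, RNA was extracted with Trizol, libraries were made with the Smart-seq v4 kit, which primes from poly(A) tails and does not mark strand, and paired-end reads were trimmed with Trim Galore 0.4.1 and mapped to GRCm38 with STAR 2.5.3a. The authors deposited FPKM values for 23125 genes in 1 table, with 0.01 as the lowest value in every library. The methods name RefSeq genes as reference, but the table's start and end matched the GENCODE M21 gene (end plus 1) for 9 of the 10 genes, so transcript lengths and fragment numbers here are from GENCODE and may differ from those the authors used. No columns lacked a sample, and 2 of the 38 listed samples, both of zygote replicate A, had no column and were not analysed here. No pair of libraries shared more than 0.0287% of equal values above the offset.

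A model of 12 group means over 36 libraries was fitted to log2 FPKM, without a pseudocount, in limma 3.58.1 (R 4.3.3, eBayes with trend). It covered 7967 genes whose geometric mean reached 0.1 FPKM, two-sided, with Benjamini-Hochberg adjustment over those genes. Calls needed an adjusted p under 0.05 and a log2 change over 1. The fit was tested on simulated data. P-values measure the spread between libraries, which the study calls biological replicates. The depth was estimated from steps in the values of genes with 1 transcript after subtracting the offset. Only 47.0 to 63.4% of the low values lay within 0.1 of a whole step, so fragments are approximate and no count test was run. Fragment numbers use the principal transcript's length. Figures used matplotlib.

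All 10 genes are named. In the comparisons described for the 2 pathway lists, the called genes with the largest changes are named (up to 3 each way) and a mean of at least 1 FPKM in the higher group. Gpr12, Wee1 and Pkmyt1, relatives of members, were named outside this rule after their values were seen. For the likeness, the 2 protein-coding genes of highest r were taken. The members, lists and tests were chosen with earlier results of these data known. Alternatives were an added 0.1 or 1 FPKM, other minimums, 2 scalings, fewer libraries in the fit, library weights, blocks by replicate letter and leaving out each library. A fit without the two-cell M libraries, the estimated fragments and the named values of uncalled comparisons were chosen after seeing the data.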

Additional observations from a re-analysis of the deposited data

Results flagged for a closer look

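In 8 cases the effect of M-phase differed between divisions, or between fractions, by a test of the difference itself (limma interaction contrasts, log2 scale). For Gnas the change from GV to MII minus that from zygote to zygote M in polysomes was -6.41. For Prkar1a the meiotic minus the two-cell change was -3.38. For Wee2 the meiotic and the zygotic change each differed from the two-cell change, by 5.87 and 4.71. For Cdc25b the same contrasts were 6.43 and 6.85. Leaving out 1 library moved those of Wee2 over 4.33 to 6.92 and 3.17 to 5.75. Those of Cdc25b then ranged over 4.33 to 8.52 and 4.76 to 8.95. For Cdc25c the zygotic minus the two-cell change was -6.40, and for Wee2 the polysome minus the non-polysome change at the two-cell division was 4.26. Over all genes tested, 9.51% were called in the first of these contrasts, 23.5% and 23.7% in those of the meiotic and zygotic with the two-cell change, and 5.75% in that between fractions, so 3 of 8 genes called against the two-cell change is near the background. Of these, the contrasts of Gnas and Wee2 between divisions were called in every fit that left out 1 library of the groups compared, and the 2 of Cdc25b in 11 of 12, lost without two-cell M polysome library A (adjusted p = 0.0809 and 0.0532). Prkar1a held in 2 of 12 such fits, Cdc25c in 3 of 12 and the Wee2 contrast between fractions in 9 of 12, while that contrast was lost in 6 of 10 other alternatives. The groups of 3 libraries were too small for the test of single outlying samples.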

How the results depend on the processing

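Of 30 calls of single genes, 11 were kept in every alternative that gave a value, the leave-one-out fits aside. The directions that turned were Gnas, two-cell M against two-cell in the non-polysome fraction, at 0.10 with quantile normalization and 0.50 with equal medians, and Cdc25a, MII against two-cell M in the non-polysome fraction, at -0.11 with equal medians. The cause was not tested. Counts of calls are over 8 genes and all comparisons of a kind. M-phase against interphase in polysomes had 4 calls, and 7 with 0.1 added, 8 with quantile normalization, 8 with only the libraries of the fraction and 9 with library weights. In the non-polysome fraction it had 3, and 5 with quantile normalization, 6 with equal medians and 5 with library weights. Oocyte against embryo in polysomes had 6, and 12 with 1 added, 13 with quantile normalization, 3 with equal medians, 14 with only the groups compared and 18 with library weights, and in the non-polysome fraction 7, and 11 with quantile normalization. Polysome against non-polysome had 2, and 5 with 0.1 added, 6 with 1 added, 1 with no minimum, 5 with quantile normalization and 1 with equal medians. The difference of changes between fractions had 1, and 0 with 0.1 added, with quantile normalization and with only the groups compared. Leaving out each library gave 4 to 6 calls for M-phase in polysomes, 2 to 5 in the non-polysome fraction, 4 to 7 and 5 to 10 for oocyte against embryo, 5 to 8 between divisions, 1 to 5 for polysome against non-polysome, 0 to 2 for the difference of changes, and 5 and 6 to 7 for the stage effects. All 120 group levels stayed within 1 SD as geometric means, which says little, since libraries that lie far apart also widen the SD. For Cdc25b in two-cell M polysomes the mean was 1.175 FPKM and the geometric mean 0.182.

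The replicate letters were not shown to pair the samples. Deviations of the 2 fractions of one stage and letter correlated at 0.0756 on average (18 pairs, 6 above 0.1). With the replicate letter as a block, oocyte against embryo in polysomes had 5 calls and the contrasts between divisions 6. The calls lost were Gnas, MII against zygote in polysomes (-4.27, adjusted p = 0.0764) and Cdc25c, zygotic minus two-cell change (-6.06, adjusted p = 0.0903). Depth limits Adcy3, Cdc25a, Cdc25c, Prkaca and the two-cell M non-polysome values of Wee2 and Cdc25b. The fit shares 1 estimate of the spread among groups whose replicate correlations differ.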
